A study of Homo sapiens with 8 samples.

Results

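The tRNA genes described here are the 285 nuclear tRNA genes that RefSeq places on chromosomes 1 to 22 and X of the human genome (GRCh38.p14, the build hg38) outside the large cluster on chromosome 6 between 26.0 and 29.7 Mb. They make up 285 of 429 such genes; the cluster holds the other 144. The members were chosen by position alone, as the peaks of single-stranded DNA that overlapped one of these genes widened by 250 bp on each side. They numbered 159 of 30351 peaks and 157 of 24111 peaks in the control lists, and 149 of 9816 and 148 of 9896 in the vitamin C lists.

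The lists came from KAS-seq in HEK293T cells, an established line derived from human embryonic kidney. KAS-seq labels unpaired guanines in living cells with N3-kethoxal and sequences the labelled fragments, so that melted DNA, such as the bubble held open by a transcribing polymerase, is enriched. Control cells received N3-kethoxal alone (5 mM, 10 min), and vitamin C cells received 0.5 mM vitamin C for 10 min before the same labelling. Each condition had 2 labelled libraries with 1 peak list each; the 4 input libraries of the series were not analysed here. All cells were a bulk culture of 1 line, so fewer cells with open DNA at a gene and less open DNA per cell cannot be told apart.

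A tRNA gene is short and is transcribed by RNA polymerase III (Pol III). Its promoter lies inside the gene: the A box and the B box are bound by TFIIIC, which places TFIIIB just upstream, and TFIIIB recruits the polymerase. Transcription ends at a run of T soon after the gene, and the polymerase starts again on the same template. Genes are named by amino acid and anticodon, then by a number for each distinct mature sequence (the isodecoder) and a number for each copy, so that TRH-GTG1-3 and TRH-GTG1-9 are copies of 1 histidine tRNA. The 285 genes covered 22 isotypes (counting the initiator methionine and selenocysteine tRNAs separately) and 48 anticodons.

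The sequence of 10 of the 285 genes could be read, because each lies wholly inside a 300-base promoter window of another gene in RefSeq (GRCh38.p14), and 7 of these had a peak in all 4 lists and 3 in none. The B box was searched as GTTCNANNC on both strands, which set the strand of the tRNA gene; 7.48% of 35116 promoter windows hold this motif on either strand. Below, the gene is followed by 25 downstream bases, and the capitals mark the B box match and the first run of at least 4 T after the gene. Such a T run was found after 8 of the 10 genes, and in the first 25 bases of 10.2% of the promoter windows. The first 6 sequences are shown as pairs of near or full identity, and the last pair because the peak summits lay on opposite sides of the gene.
TRH-GTG1-3: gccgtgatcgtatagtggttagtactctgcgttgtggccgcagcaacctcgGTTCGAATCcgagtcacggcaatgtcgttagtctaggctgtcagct
TRH-GTG1-9: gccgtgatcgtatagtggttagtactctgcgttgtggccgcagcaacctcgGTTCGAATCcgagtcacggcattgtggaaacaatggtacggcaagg
TRN-GTT4-1: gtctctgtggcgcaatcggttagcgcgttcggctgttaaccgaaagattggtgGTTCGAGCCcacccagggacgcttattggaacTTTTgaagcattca
TRN-GTT6-1: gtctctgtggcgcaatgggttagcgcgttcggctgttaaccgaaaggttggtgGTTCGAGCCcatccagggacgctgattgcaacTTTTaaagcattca
TRP-TGG3-2: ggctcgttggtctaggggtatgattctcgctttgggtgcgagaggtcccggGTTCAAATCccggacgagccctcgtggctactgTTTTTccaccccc
TRP-TGG3-5: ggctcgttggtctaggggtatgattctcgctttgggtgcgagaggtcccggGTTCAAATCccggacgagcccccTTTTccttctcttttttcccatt
TRF-GAA1-5: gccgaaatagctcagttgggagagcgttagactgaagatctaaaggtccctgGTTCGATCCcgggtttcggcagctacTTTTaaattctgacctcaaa
TRR-ACG2-1: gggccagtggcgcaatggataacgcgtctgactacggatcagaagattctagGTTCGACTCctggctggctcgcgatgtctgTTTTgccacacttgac

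The histidine copies TRH-GTG1-3 (chr1:148281365-148281436, farther than 1 kb from any protein-coding gene) and TRH-GTG1-9 (chr15:45201151-45201222, within 1 kb of SHF) were identical over all 72 bases of the gene. TRH-GTG1-3 had a peak in no list. TRH-GTG1-9 had one in all 4, with an authors' fold enrichment of 52.8 and 44.3 in the controls and 32.3 and 33.1 after vitamin C, which ranked 39, 46, 63 and 53 in the respective lists. This peak also covered TRH-GTG1-8, and its summit lay upstream of the centre of TRH-GTG1-9, at -973.5, -964.5, -974.5 and -967.5 bp. The fold and rank therefore belong to the shared peak and not to TRH-GTG1-9 alone. The asparagine genes TRN-GTT4-1 (chr1:16889677-16889750, no peak) and TRN-GTT6-1 (chr1:143735920-143735993, a peak in all 4 lists) differed at 3 of 74 positions, and both have the same B box letters and a T run starting 12 bases after the gene. The proline copies TRP-TGG3-2 (chr14:20684016-20684087, within 1 kb of ANG) and TRP-TGG3-5 (chr16:3188094-3188165, within 1 kb of OR1F1) were identical over 72 bases, and both had peaks in all 4 lists. In the histidine pair, 1 of 2 identical genes thus had a peak in every list and the other in none. Where the copies of a tRNA are identical, short reads from inside the gene match every copy. How such reads were placed is not given in the sources used here, so presence at a single copy is uncertain.

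TRF-GAA1-5 (chr13:94549650-94549722, a phenylalanine gene within 1 kb of DCT) had its summits upstream of the gene centre in all 4 libraries, at -63, -47, -50 and -56 bp. TRR-ACG2-1 (chr3:45688999-45689071, an arginine gene within 1 kb of SACM1L) had them downstream in all 4, at 131, 121, 129 and 228 bp. Over the 7 genes with a known strand and a peak in every list, 18 of 28 summits lay upstream of the gene centre and 10 downstream, at positions from -974.5 to 228 bp (downstream positive). Of these, 8 values, all upstream, came from TRH-GTG1-9 and TRP-TGG3-2, whose peaks also covered a second tRNA gene. The 20 values from peaks over 1 tRNA gene fell 10 upstream and 10 downstream.

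Peaks were present at most tRNA genes in every library, in nearly the same number before and after vitamin C. A gene with any base of a peak in its widened window was counted as having a peak: 199 and 197 of 285 in the controls (69.8% and 69.1%) and 187 and 185 after vitamin C (65.6% and 64.9%). The groups did not overlap, and the log2 ratio of vitamin C over control was -0.09 (198 ± 1.41 against 186 ± 1.41 genes, SD, n = 2 each; exact two-sided permutation test, p = 0.333). With 2 libraries against 2, 0.333 is the smallest p this test can give, so no difference between the conditions could pass a threshold. Peaks at tRNA genes numbered 158 ± 1.41 in the controls and 148.5 ± 0.707 after vitamin C, a log2 ratio of -0.09 (exact permutation, p = 0.333). With every list shortened to the same length that ratio changed sign, to 0.015. Over the same libraries the peaks at no tRNA gene numbered 30093 and 23855 in the controls and 9572 and 9652 after vitamin C, a log2 ratio of -1.49. Peaks at these tRNA genes therefore made up 0.524% and 0.651% of the control lists and 1.518% and 1.496% of the vitamin C lists, a difference of 0.919 percentage points (exact permutation, p = 0.333). In lists of equal length that difference was 0.0153 points.

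**Figure D1:**
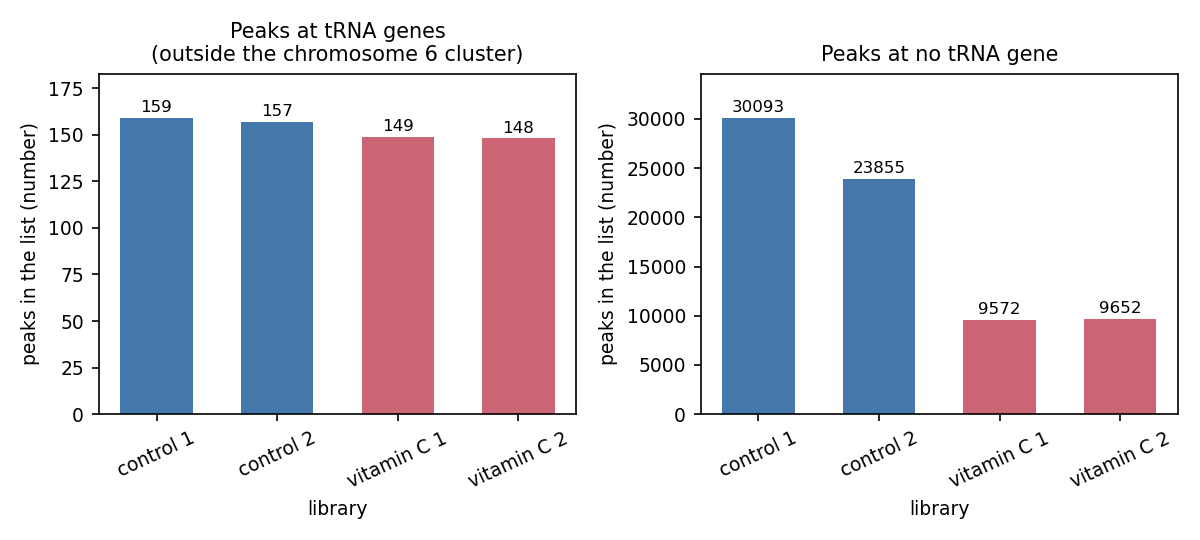
Number of peaks per library (y axes, from 0) at tRNA genes outside the chromosome 6 cluster (left) and at no tRNA gene (right); blue bars are the 2 control libraries and red bars the 2 vitamin C libraries. Peaks at tRNA genes ranged from 148 to 159, while peaks elsewhere ranged from 9572 to 30093.

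Gene by gene, 194 tRNA genes had a peak in each control, and 185 of these (95.4%, 95% Clopper-Pearson interval 91.4 to 97.9%) also had one in each vitamin C library and are called kept. Of 317 other RefSeq genes of at most 200 bp present in each control, 191 were kept (60.3%). Among them 37 of 37 snRNA genes, 94 of 160 snoRNA genes and 29 of 71 miRNA genes were kept. Lost genes, present in each control and absent from each vitamin C list, numbered 7 (3.61%, interval 1.46 to 7.29%), beside 21.1% of the other short genes. No tRNA gene was gained (the opposite pattern), nor was any of the 6503 other short genes (0.00%). A further 2 genes with both control peaks, TRI-TAT2-1 and TRQ-CTG1-1, had a peak only in vitamin C replicate 1, and 8 genes had a peak in 1 control only. The remaining 83 genes (29.1%) had no peak in any list. At least 1 library had a peak at 6.98% of the other short genes, and at 202 of the 285 tRNA genes. Every vitamin C peak at a tRNA gene was met by a peak in both controls (149 of 149 and 148 of 148), while 145 of 159 and 146 of 157 control peaks were met in both vitamin C libraries. The same shares over all peaks were not counted and the control lists are longer, so this matching cannot be read as particular to tRNA genes. These intervals cover counting error only, and genes that share a peak are not independent.

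The tRNA peaks were among the strongest of each list. The authors' fold enrichment (fragments over local background, each peak's own value) had a median of 29.5 and 25.6 at tRNA genes in the controls and of 21.4 and 21.5 after vitamin C, against 6.06, 5.96, 6.71 and 6.39 over all peaks of the same lists. Their lowest fold was 4.40, 4.47, 5.49 and 5.84, and their highest 76.0, 75.3, 62.3 and 57.7. Among the 100 peaks of highest fold in a list, 41, 48, 40 and 45 lay at these tRNA genes, and among the highest 10 there were 2, 7, 5 and 7. A further 16, 14, 15 and 17 of the same 100, and 2, 1, 2 and 1 of the same 10, lay at tRNA genes of the chromosome 6 cluster. High rank was thus shared with that cluster. Of the 185 kept genes, 132 and 113 had their best peak in the top 1% of the control lists by fold, and 59 and 74 in the top 1% of the vitamin C lists; the lists differ in length, so this shows no change in a gene.

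The strongest kept genes came from many isotypes. TRC-GCA2-2, a cysteine tRNA gene (chr17:38867645-38867716, intergenic by more than 1 kb), had a fold of 76.0 and 59.5 in the controls and of 21.8 and 52.4 after vitamin C, ranking 5, 2, 212 and 5. It was thus near the top of 3 lists and lower in vitamin C replicate 1. TRG-GCC1-5, a lone glycine gene (chr21:17454789-17454859), reached 62.7 and 54.6 in the controls and 31.6 and 27.6 after vitamin C. TRE-CTC1-1, a glutamate gene (chr1:146035692-146035763), reached 59.8, 75.3, 62.3 and 56.5, and led control replicate 2, where its peak also covered 2 neighbouring tRNA genes. The other 9 genes of the 12 strongest lay under 4 peaks. These peaks lay at the pair TRY-GTA2-1 and TRA-AGC8-1 inside AGBL5 on chromosome 2 (58.4, 56.2, 43.2 and 32.7) and at the pair TRY-GTA5-5 and TRP-TGG3-2 within 1 kb of ANG on chromosome 14 (57.3, 57.3, 17.4 and 25.3). A further peak lay at TRL-CAG2-1 on chromosome 16 (60.0, 53.3, 42.3 and 45.4), and in both controls it also covered TRL-CAG2-2. The last was a block of 4 genes at HES7 on chromosome 17, TRK-TTT3-5, TRQ-CTG1-5, TRL-TAG1-1 and TRR-TCT2-1, whose shared peak had folds of 59.8, 54.6, 44.3 and 56.7. A fold under a shared peak belongs to the peak and cannot be divided among its genes.

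The 7 lost genes were weak in the controls. Control strength is the percentile, by fold within its list, of the best peak at a gene, averaged over the 2 controls. It lay between 23.9 and 71.2 in the lost genes (median 46.8) and at 63.7 or above in the kept genes (median 99.4). Only 1 kept gene, TRH-GTG1-6 inside NFIB, lay at or below the strongest lost gene. That lost gene was TRQ-CTG4-1, a glutamine gene (chr1:148265108-148265179), with folds of 6.06 and 12.4 and peak widths of 778 and 2185 bp in the controls. In control replicate 2 the summit lay 1715.5 bp from the gene's centre, so the fold of 12.4 and with it the gene's place as the strongest lost gene rest on a summit away from the gene. TRR-TCT4-1 (chr1:159141611-159141684, inside AIM2), the arginine gene whose mouse counterpart is known for expression in neurons, had folds of 5.08 and 5.82. TRY-ATA1-1 (chr2:218245826-218245918, inside ARPC2), a tyrosine-type gene with an ATA anticodon, had 6.61 and 5.41. TRK-CTT5-1, a lysine gene (chr16:3180554-3180626), had 4.40 and 7.03. The other 3 were cysteine genes: TRC-GCA2-1 (chr4:123508850-123508921; 4.95 and 7.27), TRC-GCA21-1 (chr7:149664824-149664895; 4.49 and 5.26) and TRC-GCA9-4 (chr7:149707669-149707740; 9.85 and 4.47). The count of lost genes depended on the threshold. It was 2 with peaks of -log10 q of at least 5, 3 with a fold of at least 5 and 0 with lists of equal length, and 12 when control replicate 2 was left out.

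Retention was set beside that of other regions in the same of 10 bins of control strength. The bins do not match strength fully. In the strongest bin the median strength was 99.3 at tRNA genes and 96.0 at no tRNA gene. Merged control peaks present in both controls gave 154 regions at these tRNA genes, of which 145 were met in each vitamin C library (94.2%, interval 89.2 to 97.3%) and 7 in neither. Of the 14926 regions at no tRNA gene, 32.1% were met in both and 42.7% in neither. In the strongest 10% of regions by control strength, which held 133 of the 154 tRNA regions, all 133 were met in both (interval 97.3 to 100%), against 94.0% of the 1303 regions at no tRNA gene there; 0.844% of the latter were met in neither. In bins 2 to 5 of 10 (counted from the weakest), none of the 8 tRNA regions was met in both libraries and 7 were met in neither, while between 10.3% and 20.4% of the regions at no tRNA gene were met in both. The tRNA regions thus stood at the top of the scale of strength, where most regions of any kind were met again. With lists of equal length, 100% of the tRNA regions were met in both, and of all regions away from these tRNA genes 64.5% in place of 32.5%.

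**Figure D2:**
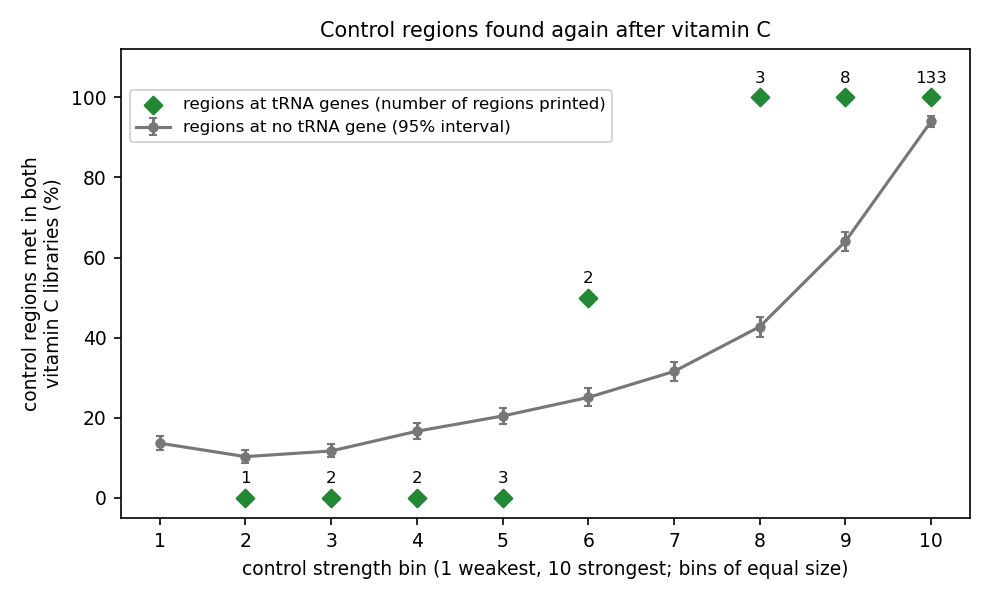
Share of reproducible control regions met in both vitamin C libraries (y axis, %) by control strength in 10 bins of equal size (x axis). Grey circles with 95% Clopper-Pearson bars are regions at no tRNA gene and green diamonds are regions at tRNA genes outside the chromosome 6 cluster, with the number of regions printed above each. The 133 tRNA regions of the strongest bin were all met, and the 8 in bins 2 to 5 were not.

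Peaks at tRNA genes were wide, and narrower after vitamin C. Their median width was 1013 and 1018 bp in the controls and 802 and 725 bp after vitamin C (1015.5 ± 3.54 against 763.5 ± 54.4 bp, SD, n = 2 each), a difference of -252 bp without overlap between the groups (exact permutation, p = 0.333). The difference was -274.75 bp in lists of equal length. Peaks at no tRNA gene had medians of 359, 377, 352 and 346 bp, a difference of -19 bp. Within each library the tRNA peaks had the larger median, by 654, 641, 450 and 379 bp (4 of 4 libraries, exact paired permutation test, p = 0.125, the smallest 4 libraries allow). Among the 500 peaks of highest fold the order was the opposite. There the tRNA peaks were narrower than the others, with differences of -643 and -507 bp in the controls and -146 and -236.5 bp after vitamin C (0 of 4 above 0, exact paired permutation, p = 0.125).

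At the 185 kept genes, both control peaks were wider than both vitamin C peaks at 164 (88.6%), and the reverse held at 0; the median difference of the means was 208 bp. Counted once per region, 128 of 145 kept tRNA regions (88.3%) had both control peaks wider. Among kept regions at no tRNA gene this share was 67.4% (1.02% the reverse), and 77.3% in the strongest 10% (0.163% the reverse). The median ratio of the mean widths, vitamin C over control, was 0.789 over the tRNA regions and 0.639 over the others. In the strongest 10% these ratios were 0.792 and 0.625, so that tRNA peaks after vitamin C were nearer to their control width; this difference has no test over libraries.

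**Figure D3:**
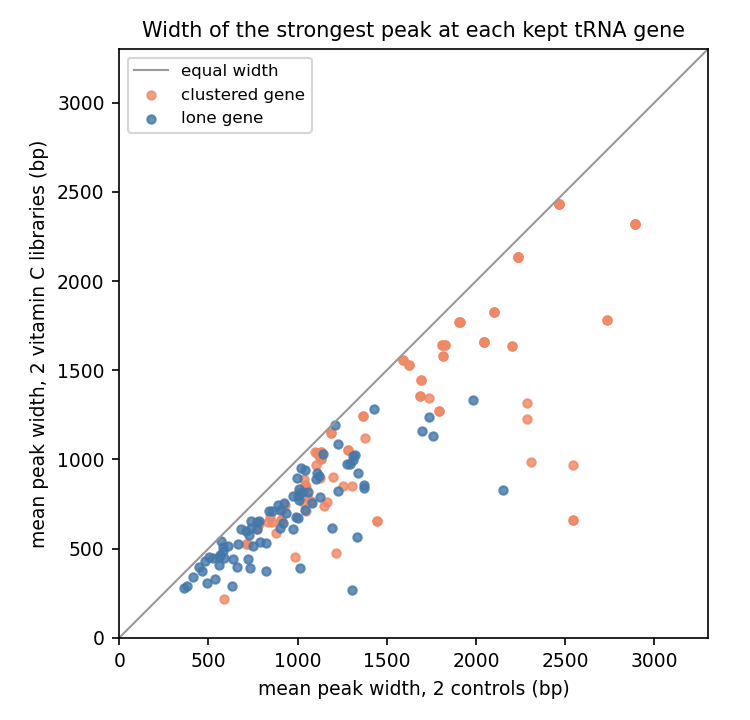
Mean width of the strongest peak at each of the 185 kept tRNA genes in the 2 vitamin C libraries (y axis, bp) against the 2 controls (x axis, bp); orange points are clustered genes, blue points lone genes and the line marks equal width. Both control peaks were wider at 164 genes, and genes under a shared peak share a point.

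The widest peaks covered several genes. In control replicate 1 the widest peak (2856 bp) lay over TRW-CCA1-1, TRG-TCC3-1, TRD-GTC2-11 and TRP-CGG1-3 on chromosome 17 (tryptophan, glycine, aspartate and proline tRNAs), and measured 2929 bp in control replicate 2 and 2374 and 2264 bp after vitamin C. The block at HES7 changed little, with 2451 and 2481 bp in the controls and 2409 and 2451 bp after vitamin C. The arginine genes TRR-CCT1-1, TRR-CCT2-1 and TRR-TCG3-1 inside KCTD2 lay under 1 peak of 2589 and 2501 bp in the controls. After vitamin C they lay under separate peaks, of 599 and 724 bp over the first 2 genes and of 1044 and 889 bp over TRR-TCG3-1. TRK-TTT5-1 and TRF-GAA1-3 on chromosome 11 shared a peak of 2286, 2291 and 1792 bp in 3 libraries and had separate peaks of 844 and 664 bp in vitamin C replicate 2. The lone arginine gene TRR-CCT4-1 on chromosome 7 (inside the annotated spans of LUC7L2 and FMC1) had 2291, 2017, 1058 and 603 bp. The narrowest 5 peaks of control replicate 1, between 218 and 300 bp, lay at TRT-CGT4-1, TRK-CTT5-1, TRK-CTT6-1, TRR-TCT4-1 and TRG-GCC2-4, and none of these genes had a peak after vitamin C. Only TRK-CTT5-1 and TRR-TCT4-1 are lost genes, since the other 3 had no peak in control replicate 2 either. No peak covered more than 4 tRNA genes.

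Peaks over a single tRNA gene numbered 130, 128, 120 and 120, with median widths of 905, 943.5, 722 and 662 bp, far longer than the gene. Their summits lay a median of 90.25, 97, 88.5 and 75.75 bp from the gene's centre, and within 250 bp of it for 92.3%, 87.5%, 94.2% and 95.8% of peaks. Inside the gene itself lay 20, 18, 21 and 18 summits. Most summits were thus beside the gene rather than in it.

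By isotype, presence ranged from nearly every gene to a minority. A peak in all 4 lists was found at 14 of 15 arginine, 17 of 18 proline, 8 of 9 serine, 9 of 11 threonine and 17 of 21 valine genes. At the low end stood aspartate (3 of 10), cysteine (13 of 29), and alanine, glutamine and isoleucine (5 of 10 each). Of the 10 aspartate genes, 5 lie in the repeated cluster on chromosome 1 described below, where no gene had a peak. Both initiator methionine genes, whose tRNA starts every protein, had peaks in all lists: TRX-CAT1-1 (chr1:153671250-153671321, within 1 kb of ILF2) with folds of 29.5, 32.0, 24.0 and 24.7, and TRX-CAT1-8 (chr17:82494721-82494792) with 26.2, 20.04, 16.9 and 16.9. Of the selenocysteine genes, whose tRNA reads a UGA codon as selenocysteine, TRU-TCA1-1 (chr19:45478601-45478687) had peaks in all 4 lists with folds of 29.0, 24.7, 20.2 and 9.73. TRU-TCA2-1 (chr22:44150657-44150740, inside PARVB) had none. In the 8 isotypes with the most genes, the strongest kept genes were TRC-GCA2-2, TRG-GCC1-5, TRL-TAG1-1, TRK-TTT3-5, TRP-TGG3-2 and TRR-TCT2-1, all described above, and TRN-GTT2-6 and TRV-TAC2-1. TRN-GTT2-6, an asparagine gene within 1 kb of NDUFS7 on chromosome 19, had folds of 34.7, 29.7, 14.0 and 19.8, and its peak in both controls also covered TRF-GAA1-6. TRV-TAC2-1, a valine gene on chromosome 11, had 62.2, 50.2, 45.9 and 46.5 and shared its peak with 3 other tRNA genes in each library.

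Cysteine genes were present in some places and absent in others. Of 29, 18 lie within 398 kb on chromosome 7 (chr7:149310190-149707740), where 4 had a peak in all 4 lists, 2 were lost, 11 had none and 1 had another pattern. All 5 cysteine genes on chromosome 17 (chr17:38861684-39154562) had a peak in all 4 lists, as did both on chromosome 3. Most of the genes on chromosome 7 carry high isodecoder numbers, which are given in order of falling score of the tRNA model. Over all members, 18 of 49 genes with an isodecoder number of 6 or above had a peak in all 4 lists, against 61 of 87 with number 1 and 104 of 146 with numbers 2 to 5. All 23 genes of the repeated cluster on chromosome 1 described below, which had no peak, carry numbers from 1 to 5. Read placement there is not stated, and the shares were not computed without that cluster.

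**Figure D4:**
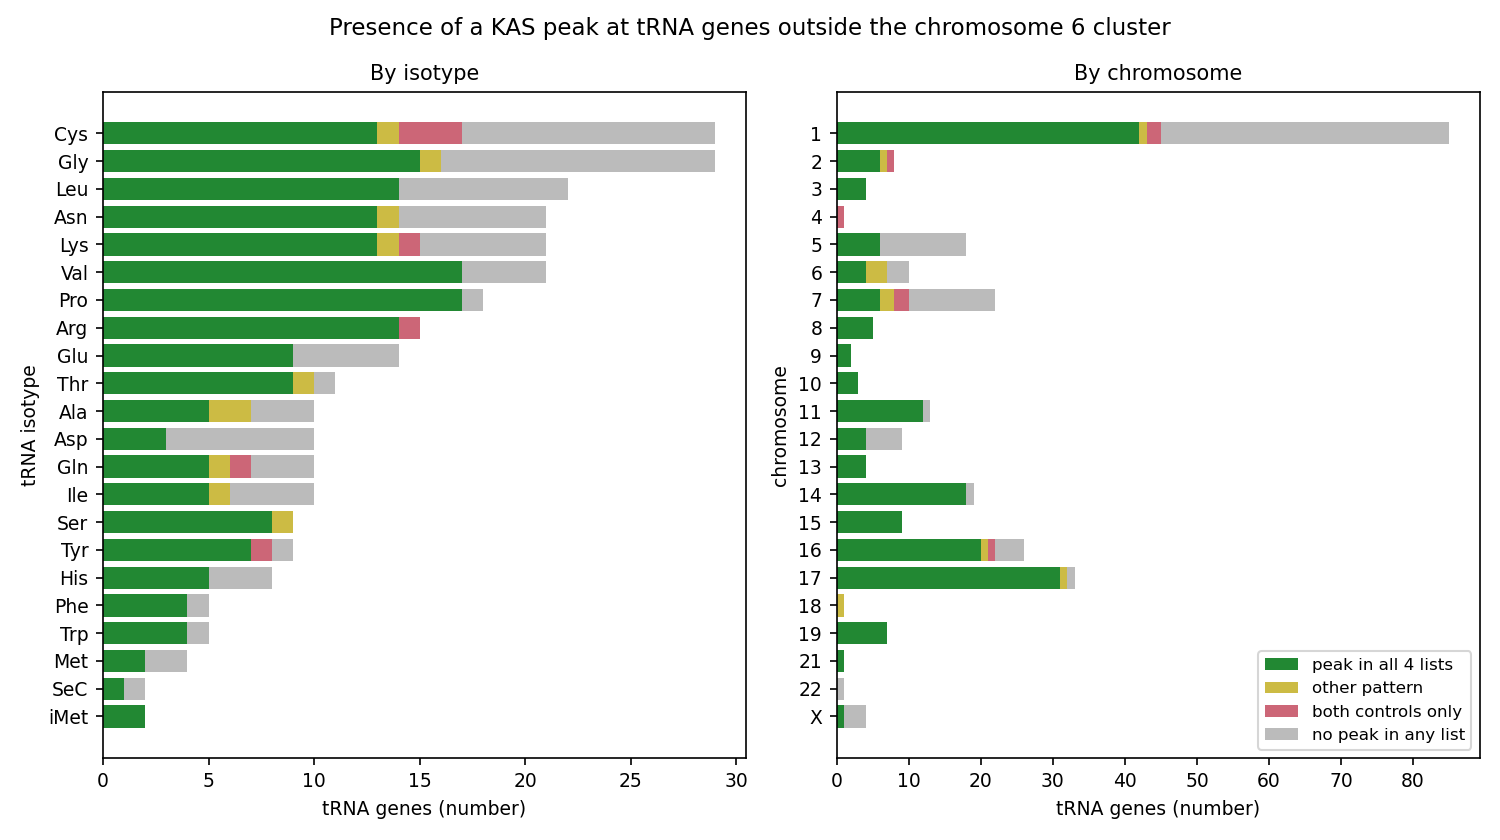
Number of tRNA genes outside the chromosome 6 cluster (x axes) by isotype (left) and by chromosome (right), stacked by presence: green, a peak in all 4 lists; yellow, another pattern; red, both controls only; grey, no peak in any list. Genes without a peak were most numerous among cysteine (12) and glycine (13) genes and on chromosome 1 (40 of 85).

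By chromosome, 31 of 33 genes on chromosome 17 and 18 of 19 on chromosome 14 had a peak in all 4 lists, as did all 9 on chromosome 15 and all 7 on chromosome 19. Fewer did on chromosome 1 (42 of 85), chromosome 12 (4 of 9), chromosome 6 outside the cluster (4 of 10), chromosome 5 (6 of 18), chromosome 7 (6 of 22) and chromosome X (1 of 4). Chromosomes 4, 18 and 22 hold 1 member each, and none of these had a peak in every list. Genes without a peak lay together. Of the 83, 57 fell into 7 runs of at least 3 neighbouring tRNA genes (no more than 100 kb apart) with no peak at any. How reads that match several repeats were placed is not stated, so absence over repeated arrays does not show that the DNA was closed. The longest run held 25 genes of 5 isotypes at chr1:161428077-161480636, and no peak of any kind lay in this span in any list. Within it is the largest cluster of the set, 23 genes repeating glycine, aspartate, leucine and glutamate tRNAs at chr1:161440171-161471205. A second run of 11 genes of 6 isotypes lay at chr5:181173650-181222467, again with 0 peaks in all 4 lists, while the cluster of 4 valine and leucine genes at chr5:181097070-181102325 had a peak at every gene in every library. By contrast the run of 5 cysteine genes at chr7:149556711-149598026 had 3, 4, 1 and 1 peaks between its genes.

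Clusters are genes linked by gaps of at most 5 kb to another tRNA gene of any kind in the set. By this rule 153 genes were clustered, in 46 clusters, and 132 were lone. A peak in all 4 lists was found at 101 clustered and 84 lone genes, and no peak at 48 and 35. Of the 48 clustered genes without a peak, 23 lie in the repeated cluster on chromosome 1, where read placement is not stated. The share difference given next includes that cluster and was not computed without it. Lost genes numbered 1 and 6. The share of genes with a peak, clustered minus lone, was -4.00 and -3.89 percentage points in the controls and 0.862 and 2.38 points after vitamin C, a mean of -1.16 ± 3.27 (SD over 4 libraries; above 0 in 2 of 4; exact paired permutation, p = 0.5). Best peaks were wider at clustered genes, with medians of 1407.5, 1362, 1067 and 1090 bp against 834, 896, 668.5 and 620 bp at lone genes. These medians count a shared peak once for each gene under it, and neighbouring genes can share a peak where lone genes cannot. Peaks over several genes had median widths of 1799, 1791, 1522 and 1439.5 bp, and peaks over 1 gene 905, 943.5, 722 and 662 bp. Widths of single-gene peaks were not compared between clustered and lone genes. Besides those already named, the 12 clusters of 4 or more genes held 7 genes at chr11:59550629-59560407, 7 at chr17:8220869-8227064, 5 at chr17:8119155-8125816 and 4 at chr17:8186358-8187666, each with a peak at every gene in every list. The same held for 4 genes at chr1:146035692-146039473, 4 at chr14:20609336-20613862 and 4 at chr16:3150674-3158993. In the 9-gene cluster at chr16:3172048-3192060, 8 genes were kept and TRK-CTT5-1 was lost. In the 4 tyrosine genes at chr14:20653099-20663285, 3 were kept and 1 had no peak. The cluster of 4 at chr5:181187701-181191758 had none.

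The presence of a listed peak often differed between copies of the same mature tRNA. Of 42 isodecoder families with at least 2 copies among the members (154 genes), 21 had a peak in all 4 lists at every copy, 2 had none at any copy, and 16 held copies of both kinds. The proline family AGG-2 had peaks in all lists at 7 of 7 copies and the tyrosine family GTA-5 at 5 of 5. The aspartate family GTC-2 had them at 2 of 9 copies with none at the other 7, and the leucine family CAG-1 at 1 of 6 with none at 5. Of these, 5 GTC-2 copies and all 5 CAG-1 copies without a peak lie in the 23-gene cluster on chromosome 1. The same cluster holds every copy without a peak of the glycine families TCC-2 and GCC-1 and the glutamate family CTC-1. Read placement there is not stated, so these copies do not show that identical tRNA genes differed. The isoleucine family GAT-1 had no peak at any of its 3 copies.

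Presence also differed with the distance to protein-coding genes. A peak in all 4 lists was found at 37 of 38 tRNA genes within 1 kb outside a protein-coding gene, 30 of 40 inside one and 118 of 207 farther away. The last class held 76 of the 83 genes without a peak, and 57 of the 83 fell into the runs described above. Distance was not separated from membership in such runs or from read placement in repeated arrays. Median best widths were similar in the 3 classes, at 1090, 1136.5 and 1053.5 bp in control replicate 1. At such places open DNA of the tRNA gene and of the protein-coding gene cannot be told apart.

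The chromosome 6 cluster served as the closest comparison. There 113, 114, 108 and 109 of 144 genes had a peak. The share outside the cluster was thus lower by 8.65, 10.0, 9.39 and 10.8 percentage points (lower in 4 of 4 libraries, exact paired permutation, p = 0.125). Stretches without peaks enter on both sides. Outside, they include the 25-gene run on chromosome 1. Inside, no gene from TRA-AGC14-1 to TRA-AGC14-2 (chr6:26673362-26828299) had a peak in any list. The gap was not computed without these stretches. Of the cluster's genes, 106 of 111 with both control peaks were kept (95.5%, interval 89.8 to 98.5%) and 1 was lost. Median widths of the cluster's peaks were 997, 984, 724 and 775.5 bp, and the difference, outside minus inside, was 19.4 ± 53.4 bp (SD, 4 libraries, exact paired permutation, p = 0.625).

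Other Pol III templates with a peak in both controls kept it. Of the 37 listed, 19, 17, 18 and 18 had a peak, all 17 with both control peaks were kept (beside 60.3% of short genes other than tRNA genes) and none was lost. Those short genes include the templates of at most 200 bp and leave out longer ones such as RN7SK. They are not matched to the templates for strength. The 17 5S rRNA genes, a tandem array on chromosome 1, and VTRNA2-1, a vault RNA relative, had no peak in any list. For the 5S array the placement of repeated reads is likewise unknown. The vault RNA genes VTRNA1-1, VTRNA1-2 and VTRNA1-3, which encode RNA of the vault particle, had folds from 22.4 to 33.0 in the controls and from 17.7 to 26.7 after vitamin C. The Y RNA genes RNY1, RNY3, RNY4 and RNY5, whose RNAs bind the Ro protein, RMRP and RPPH1, the RNA parts of RNase MRP and RNase P, and BCYRN1, a neuronal scaffold RNA, were also kept. So were the U6 snRNA genes RNU6-1, RNU6-2, RNU6-8 and RNU6-9 and the minor spliceosome gene RNU6ATAC, while RNU6-7 had a peak in control replicate 1 only. RN7SK, the RNA that holds P-TEFb inactive, had folds of 17.4, 7.61, 34.2 and 32.1 and ranked 826, 6005, 52 and 66. RN7SL2, an RNA of the signal recognition particle, had 8.49, 5.84, 27.6 and 16.7, and RN7SL1 had a peak in every library but control replicate 2. Within the vitamin C lists these 3 genes ranked among the strongest peaks, though ranks in lists of different length show no change in a gene.

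Genes that make or use the tRNA machinery were read at their promoter windows, 250 bases before to 50 after the start. Of 30 genes for Pol III subunits and factors, 23 had a window, and 7, 6, 3 and 4 of these had a peak, where 11.6%, 9.98%, 5.16% and 5.09% of all 15812 protein-coding windows had one. Of the 4 with both control peaks, POLR1C (a subunit shared by Pol I and Pol III), POLR3A (the largest Pol III subunit) and SNAPC5 (of the complex that recruits Pol III to U6-type promoters) were kept. POLR3E, a Pol III subunit, had a peak in both controls and vitamin C replicate 2, and the nearby TRL-AAG2-4 lies within 1 kb of this gene. Over all protein-coding windows with both control peaks, 44.8% were kept and 32.5% lost (576 and 418 of 1287). Of 20 genes for tRNA end processing and export, 16 had a window and 2, 2, 1 and 1 a peak, near those same shares of all windows. POP4, a protein of RNase P, was kept, and ELAC2, which trims tRNA 3′ ends, was lost.

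Peaks were also counted at marker genes widened by 250 bp: 3, 3, 3 and 2 of 7 genes chosen for the embryonic kidney and neural traits of HEK293 cells had one. The share of all protein-coding genes with a peak counted this way was not computed, so these counts do not test the identity of the line. NEFM, NEFL, PAX2 and LHX1 had none. Open DNA is an indirect reading of a marker. Between any pair of lists at most 2 peaks had identical intervals, so no list repeated another. The lists hold no read numbers, and the depth of each library is unknown from them.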

How the data were processed

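KAS-seq peak lists of 2 control and 2 vitamin C libraries of HEK293T cells were used. The submitters' processing notes name hg38, MACS2 2.2.7.1, Bowtie2 2.4.5, deepTools, cutadapt, bcl2fastq 2.19 and Trim Galore, with settings not given in the sources used here. The authors deposited, for each peak of each library, its positions and summit, a score, a fold ratio over background, and −log10 p and −log10 q. The highest deposited q-value was 0.00999. Only peaks on chromosomes 1 to 22 or X entered. tRNA genes came from a RefSeq table (GRCh38.p14) without strand, leaving out 22 mitochondrial entries and 14 on unplaced or alternate scaffolds. The members, gene lists and tests were chosen with earlier results of these data known. The line is named from the sample titles, since another label field varies. Nothing says that replicates were separate cultures, so p-values measure only the spread between libraries, which may be technical.

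Libraries were compared by exact two-sided permutation, and shares carry 95% Clopper-Pearson intervals. Regions were merged control peaks present in both controls, met by an overlap of at least 1 bp. Genes were named by rule: the 12 strongest kept, all lost, the strongest kept gene of the 8 largest isotypes, initiator and selenocysteine genes, clusters of 4 or more, and the 5 widest and narrowest peaks. Those of the printed sequences, listed families, TRI-TAT2-1, TRQ-CTG1-1, TRH-GTG1-6 and TRL-AAG2-4 were chosen outside it, after their values were seen. Libraries of the same replicate number did not deviate together gene by gene (correlation of replicate differences across 185 kept genes 0.08 for width and -0.02 for fold). A shift common to all genes of a library would not show in this correlation, and genes under a shared peak are not independent. Whether libraries of the same number were handled together is thus not known. Markers of other tissues were also listed, and their result is not reported here. The code for presence calls was run on simulated lists, with peaks planted only at genes more than 5 kb from any other tRNA gene. It recovered 90 of 90 planted genes and called 0 others. This checks that the overlap step runs as written and does not cover clustered genes, shared peaks or distant summits. Python 3.11.15, numpy 2.4.6, pandas 2.3.3, scipy 1.17.1 and matplotlib 3.10.9 were used.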

Additional observations from a re-analysis of the deposited data

Results flagged for a closer look

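The difference between clustered and lone tRNA genes in the share with a peak had opposite signs in the conditions. It was below 0 in both controls (-4.00 and -3.89 percentage points) and above 0 in both vitamin C libraries (0.862 and 2.38 points). The change from control to vitamin C was 5.56 points (exact permutation, p = 0.333, the smallest 2 libraries against 2 allow). Lone genes with a peak numbered 95 and 94 in the controls and 86 and 84 after vitamin C, and clustered genes 104, 103, 101 and 101, and 6 of the 7 lost genes were lone. The clustered genes include the 23-gene cluster on chromosome 1, which had no peak in any list and lowers the clustered share in every library. The signs may depend on counting it, and the difference was not computed without it.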

How the results depend on the processing

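Of 107 values under other settings, 3 had another sign than reported: the log2 ratio of tRNA-gene peaks, 0.015 in lists of equal length, and clustered minus lone genes, 1.59 points in lists of equal length and 2.08 without widening, both within the spread between libraries of the reported -1.16. With equal list lengths the ratio of genes with a peak (log2) shrank to -0.0077 and the share difference to 0.0153 points, with their signs kept. Lost genes numbered 2 at a -log10 q of at least 5, 3 at a fold of at least 5, 0 in lists of equal length, and from 7 to 12 when 1 library was left out. Gained genes numbered 4 when the summit had to lie in the window. Regions met in both vitamin C libraries were 97.3% at the stricter q, 100% in lists of equal length and 82.5% when 50% of a region had to be covered. Clustered minus lone genes gave -21.7 points with the summit rule and -5.32 points with links of 20 kb. Outside minus inside the chromosome 6 cluster gave -7.74 points without widening and -12.2 with the summit rule. The causes were not tested beyond what each setting does. With the replicate block the log2 ratios were -0.09 and -0.09, the share differed by 0.919 points and the width by -252 bp (exact p = 0.5, the smallest 2 pairs allow), so the block changed no call. Kept genes numbered 178 without widening, 185 with 1000 bp and 132 with the summit rule. Depth is not in the lists, and absence of a peak is absence at the authors' threshold.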
